A study of Mus musculus with 16 samples.

Results

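The RNA of the chaperonins was followed in 16 mouse libraries through 10 genes taken by symbol from the tables of 24411 genes. These were Tcp1, Cct2, Cct3, Cct4, Cct5, Cct6a, Cct7 and Cct8, the 8 subunit genes of the cytosolic chaperonin TRiC, and Hspd1 and Hspe1, which encode the mitochondrial chaperonin Hsp60 and its cochaperonin Hsp10. Each of the 10 passed the filter on low counts, as did 16665 genes in all, and their counts ran from 787 to 34918 in a library.

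Chaperonins are barrel-shaped folding machines that take up an unfolded protein, close over it and release it after ATP hydrolysis. TRiC is a double ring in which every subunit gene supplies its own position, and it folds actin, tubulin and regulators of the cell cycle that prefoldin and Hsp70 hand to it. Hsp60 and Hsp10, the chamber and its lid, fold proteins that have been imported into the mitochondrial matrix. Sympathetic ganglia consist of neurons with glia, vessels and connective tissue, and neuroblastoma arises from the precursors of those neurons.

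Celiac ganglia (Coelic in the labels), taken at 2 weeks of age, supplied 4 of the 5 groups. Normal ganglia (n = 4) had no transgene and wild-type Runx1t1, and normal het ganglia (n = 3) had no transgene and were labelled Runx1t1 Heterozygote. MYCN ganglia (n = 3) were homozygous for Th-MYCN, a transgene that expresses human MYCN in neuroectodermal cells, with wild-type Runx1t1, and MYCN het ganglia (n = 2) were homozygous for Th-MYCN and labelled Runx1t1 Heterozygote. Tumors (n = 4) had the genotype of the MYCN ganglia, and their age is not in the labels. The Th-MYCN line was kept on a 129/SvJ background, and the het mice carried 1 knock-out allele of Runx1t1 from another line that had been crossed in, so strain background may differ between groups. The labels give the cell type as neuroblastoma for normal ganglia too, and the het groups are called by their labels throughout.

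Libraries held 10692291 to 38618760 counts, with the tumors at 27096031 or more. Among the ganglia, replicates 1 and 2 held 10692291 to 14221947 counts, and replicates 3 and 4 held 24873942 to 36337179. The MYCN het libraries are replicates 1 and 2, so depth differed between them and all tumors. Runx1t1 RNA stood at 8.47 to 13.1 CPM (counts scaled to a common library size, TMM-normalised) in normal ganglia, 13.1 to 18.2 in normal het, 23.4 to 243 in MYCN, 25.3 to 49.9 in MYCN het ganglia and 123 to 227 in tumors. The range of neither het group lay wholly below that of its wild-type counterpart. The paper describes the knock-out allele as an insertional inactivation. Whether it lowers total Runx1t1 RNA was not tested, so these values cannot check the genotype labels. Summed TPM (transcript abundance scaled by gene length) of 8 sympathetic neuron markers was 6882 to 18964 in normal ganglia and 2309.9 to 3907 in tumors. Among them Dbh, an enzyme of noradrenaline synthesis, was at 1182 to 3500 TPM in normal ganglia and 44.1 to 245 in tumors. In turn, 6 glial markers summed to 511 to 1839 TPM in normal ganglia and 12.2 to 20.0 in tumors, and 5 fibroblast markers to 1112 to 4369 and 99.5 to 299. Replicate 2 of the normal ganglia stood apart in immune markers, with 397 TPM summed over 4 lymphocyte markers against 0.560 to 5.93 elsewhere and 388 over 4 myeloid markers. In bulk tissue, a change in the make-up of cells and a change of RNA per cell cannot be told apart.

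The genes lie on separate chromosomes except for the mitochondrial pair. On GRCm38 (the mm10 build, GENCODE vM21), Tcp1 is at chr17:12915701-12925067, Cct2 at chr10:117051001-117063814, Cct3 at chr3:88297116-88321767 and Cct4 at chr11:22990519-23003780. Cct5 is at chr15:31590800-31601804, Cct6a at chr5:129786998-129846371, Cct7 at chr6:85451514-85468475 and Cct8 at chr16:87483326-87495873. Hspd1, on the minus strand at chr1:55077835-55088243, and Hspe1, on the plus strand at chr1:55088132-55091307, are transcribed away from a shared start region in which their annotations overlap by 112 bases and their RefSeq start sites lie 95 bases apart. Other overlaps on the opposite strand join Tcp1 to Acat3 (1255 bases) and Mrpl18 (645 bases), Cct6a to Psph (452), Cct7 to Pradc1 (457) and Cct8 to Usp16 (192). Whether counting used the strand is not given in the sources used here, so reads in those stretches may belong to either gene. RefSeq names 7 pseudogenes of Hspe1, 5 of Hspd1 and 1 each of Cct3 and Tcp1, none of them in the tables, and reads shared with such copies make these values less certain.

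Promoter windows (RefSeq, GRCm38.p6, 250 bases before to 50 after a start) were matched by symbol for 9 of the 10 genes, in 12 windows. They were searched on both strands for CACGTG, the E-box that MYC family proteins bind with MAX, and for GAANNTTC, the core of the heat shock element bound by Hsf1. CACGTG was in 1 of the 12 windows, that of Hspd1, and in 7.15% of all 32851 windows. GAANNTTC was in 3 of the 12, those of Hspd1, Hspe1 and Cct2, and in 7.86% of all windows, and the Hspd1 and Hspe1 matches are the same bases read from either gene. These stretches are shown because they are the motif matches in the windows of these genes; capitals mark the motif and lower case the bases around it.
Hspd1, chr1:55088306-55088335, minus strand: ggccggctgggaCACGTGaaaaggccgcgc
Hspe1, chr1:55088053-55088082, plus strand: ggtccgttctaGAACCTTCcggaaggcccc
Cct2, chr10:117063399-117063428, minus strand: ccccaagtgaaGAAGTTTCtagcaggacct

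The Hspd1 E-box (chr1:55088318-55088323) begins 80 bases upstream of the Hspd1 start and falls in an exon of Hspe1, outside its coding sequence. The shared heat shock element begins 84 bases upstream of the Hspe1 start and falls in an exon of Hspd1. It is 139 bases upstream of another Hspd1 start (chr1:55087932). From the Hspd1 start used for the E-box (chr1:55088243) it lies downstream, inside the gene. In Cct2 the match begins 42 bases upstream of an annotated start and lies in an intron of the longer form. A match of letters is a description and not a measured site, and the other windows lack only these letters.

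Comparing genes with each other by TPM, the TRiC genes were all expressed at levels of the same order. In the 16 libraries the most abundant subunit was 2.81 to 3.95 times the least abundant. Cct4 was the lowest subunit in each of the 16 libraries, at 95.4 to 206 TPM. Cct5 was the highest in 10 libraries, Tcp1 in 4 and Cct7 in 2, those of the MYCN het ganglia. Cct5 ran from 362 to 814 TPM, Tcp1 from 284 to 742 and Cct7 from 237 to 495, and Cct2 held the next places from 216 to 525. Cct3 (149.9 to 594), Cct6a (136 to 379) and Cct8 (132 to 253) followed.

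Finished tumors were compared with normal ganglia to ask which RNAs differ at the end of tumor formation. All 10 chaperonin genes were higher in tumors, by 1.86-fold for Cct8 to 3.22-fold for Hspd1, with a median of 2.41-fold (1.27 on the log2 scale, edgeR quasi-likelihood test, Benjamini-Hochberg adjusted p from 1.10e-05 to 0.000384). Of all genes tested, 27.0% were higher and 30.7% lower by the same rule, and the median log2 fold change was -0.11. In CPM, every tumor lay above every normal ganglion for 10 of 10 members, as it did for 23.8% of all genes, and above every one of the 12 ganglia for 10 of 10, against 14.4% of all genes. Proliferation markers moved with this difference: Mki67, Top2a, Ccnb1, Pcna, Mcm2 and Cdk1 summed to 74.4 to 285 TPM in normal ganglia and 1270.1 to 1496 in tumors, with all 6 higher, while all 6 glial, all 5 fibroblast and 6 of 8 neuronal markers were lower. The part of these changes of cell make-up in the chaperonin difference was not tested.

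Tcp1, the alpha subunit after which the complex is named, had the lowest adjusted p of the 10. Its CPM, given here and below in the order of the replicates, was 367, 295, 312 and 344 in normal, 354, 393 and 349 in normal het, 537, 336 and 414 in MYCN, 329.9 and 359 in MYCN het ganglia and 743, 986, 822 and 916 in tumors. The lowest tumor was thus above the highest ganglion, the first MYCN ganglion. Tumors exceeded normal ganglia by 1.40 ± 0.16 (log2, SE, adjusted p = 1.10e-05).

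Cct2, the beta subunit, stood at 208, 202, 159 and 183 CPM in normal, 193, 206 and 185 in normal het, 334, 194 and 276 in MYCN, 189 and 219 in MYCN het ganglia and 417, 537, 465 and 512 in tumors. Again the first MYCN ganglion came nearest to the tumors, and the transgene-free ganglia spanned only 159 to 208. The tumor difference was 1.36 ± 0.16 (log2, SE, adjusted p = 1.77e-05). Cct6a, the zeta subunit, stood at 183, 121, 132 and 169.8 CPM in normal, 167, 179.8 and 146 in normal het, 270.0, 153 and 229 in MYCN, 142 and 171 in MYCN het ganglia and 332, 421, 368 and 428 in tumors. Its difference was 1.35 ± 0.19 (log2, SE, adjusted p = 4.92e-05).

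Cct3, the gamma subunit, varied most among tumors relative to its mean. It measured 156, 123, 109.8 and 149 CPM in normal, 145, 149 and 139.9 in normal het, 205, 133 and 185 in MYCN, 142 and 138 in MYCN het ganglia and 260.1, 422, 361 and 597 in tumors. The tumors spread from 260.1 to 597, and the ganglia of all groups fell between 109.8 and 205. Cct3 had the largest log2 change of the TRiC genes, 1.61 ± 0.22 (SE, adjusted p = 4.94e-05).

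Cct5, the epsilon subunit, was at 293, 256, 239.8 and 267 CPM in normal, 268, 277 and 249 in normal het, 340.3, 284 and 339.7 in MYCN, 245 and 256 in MYCN het ganglia and 460.0, 664, 551 and 730.2 in tumors. Cct4, the delta subunit and the least abundant one per length, was at 93.1, 103, 70.3 and 84.9 CPM in normal, 90.0, 87.7 and 77.1 in normal het, 132, 82.2 and 115 in MYCN, 91.7 and 101 in MYCN het ganglia and 147, 204, 188 and 208 in tumors. Both separated the 4 tumors from the 12 ganglia, with a narrow gap for Cct4 between 132 and 147. Their log2 changes were 1.19 ± 0.15 and 1.09 ± 0.17 (SE, adjusted p = 2.18e-05 and 0.000110).

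The smallest differences were those of Cct7 and Cct8, the eta and theta subunits. Cct7 stood at 351, 242, 242 and 331 CPM in normal, 332, 347 and 292 in normal het, 422, 243 and 301 in MYCN, 381 and 373 in MYCN het ganglia and 496, 647, 573 and 635 in tumors. Cct8 stood at 183, 131, 135 and 168 CPM in normal, 164, 176 and 163 in normal het, 199.7, 151 and 190.2 in MYCN, 169.6 and 172 in MYCN het ganglia and 238, 322, 272 and 316 in tumors. Tumors were higher than normal ganglia by 1.01 ± 0.18 for Cct7 and 0.89 ± 0.14 for Cct8 (log2, SE, adjusted p = 0.000384 and 0.000159).

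Hspd1 had the largest change of the 10. It measured 206, 144, 164 and 203 CPM in normal, 192, 199 and 186 in normal het, 284, 233 and 237 in MYCN, 179 and 211 in MYCN het ganglia and 335, 696, 657 and 619.9 in tumors. The first tumor lay nearer to the highest ganglion, 284, than to the other tumors. The difference from normal ganglia was 1.69 ± 0.21 (log2, SE, adjusted p = 2.09e-05).

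Hspe1, its lid, was at 73.4, 89.1, 77.9 and 79.2 CPM in normal, 76.2, 58.8 and 72.1 in normal het, 72.2, 85.3 and 78.4 in MYCN, 67.7 and 75.0 in MYCN het ganglia and 109, 188, 203 and 199 in tumors. Here the ganglia of all groups stayed between 58.8 and 89.1, and the first tumor was again apart from the other tumors. The log2 difference of tumors from normal ganglia was 1.13 ± 0.17 (SE, adjusted p = 0.000112).

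**Figure D1:**
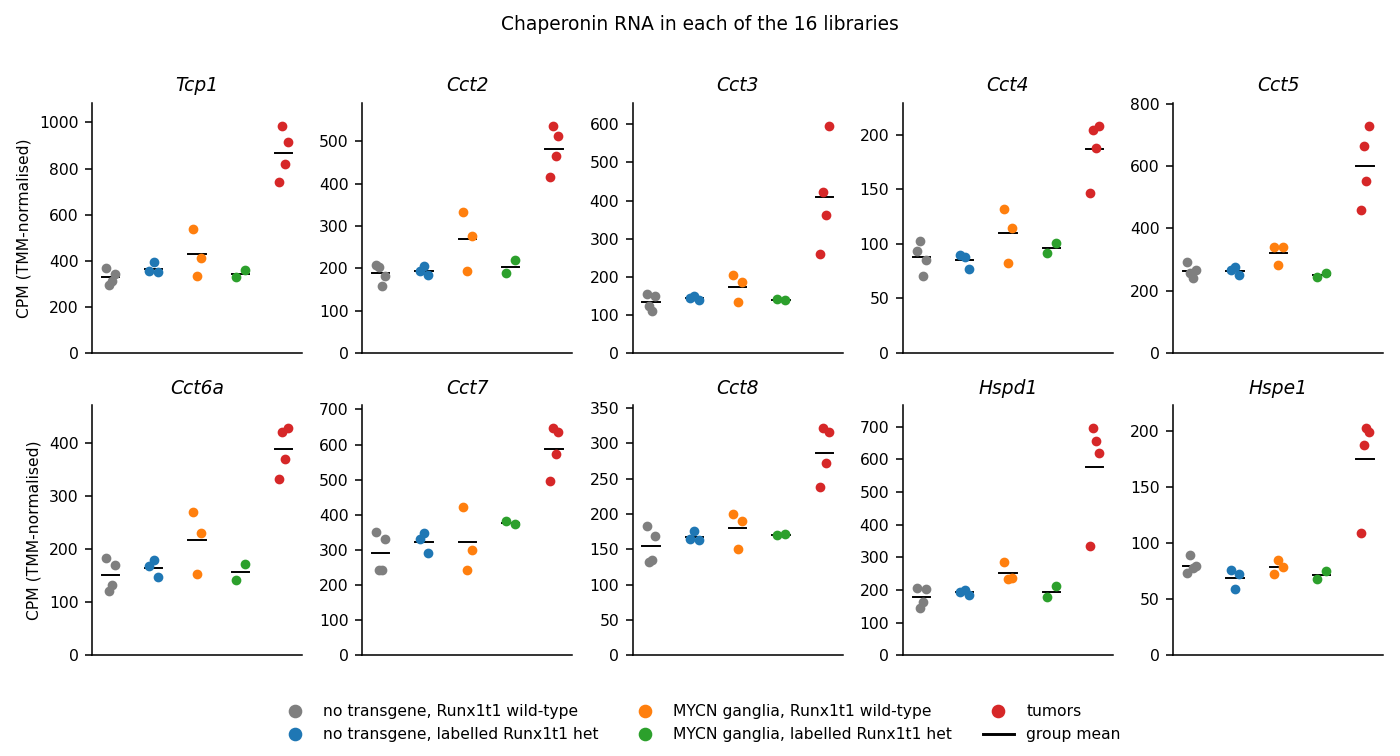
TMM-normalised CPM (linear axis from 0) of the 10 chaperonin genes, 1 point per library and a bar at each group mean, for the 4 groups of ganglia and the tumors. For each gene the 4 tumors lie above all 12 ganglia, and for Hspd1 and Hspe1 the first tumor (335 and 109 CPM) sits below the other tumors.

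The first tumor was the lowest of its group for all 10 genes, and the second was the highest for 5, the fourth for 4 and the third for 1. Leaving out the first tumor, 10 members were called and their median log2 difference from normal ganglia was 1.36, in a fit that called 9292 of all genes in either direction. Without replicate 2 of the normal ganglia, the library with lymphocyte and myeloid markers, 10 were called with log2 differences of 0.84 to 1.61, beside 9712 of all genes in either direction.

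The separation was narrower in TPM. Every tumor was above every ganglion for 4 genes, Tcp1, Cct2, Cct3 and Cct6a, against 6.06% of all genes, and above every normal ganglion for 8, the exceptions being Cct8 and Hspe1, against 15.4% of all genes. The first tumor made the overlap: its Cct8 was 191 TPM against 199.6 in the first normal ganglion, and its Hspe1 was 340.2 TPM against 359.7 in the second normal ganglion. Tested with limma on log2(TPM + 1), which moved the median of all genes to -0.36, all 10 genes were still higher in tumors than in normal ganglia, with a median of 0.84 and a largest adjusted p of 0.0116. Of all 16665 genes, this test called 9548 in either direction.

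Tumors were also set against the ganglia that carry the transgene. Against MYCN ganglia, 10 of 10 members were higher by 1.59-fold (Cct8) to 2.35-fold (Cct3), where 14.0% of all genes were (edgeR, adjusted p from 0.000572 to 0.00640). The median log2 difference was 0.89, beside -0.01 over all genes, and every tumor was above every MYCN ganglion in CPM for 10 of 10 members and for 18.7% of all genes. Hspe1 (1.15 ± 0.19, log2, SE), Cct3 (1.23 ± 0.24) and Tcp1 (1.02 ± 0.17) differed by more than 1 on the log2 scale, as did Hspd1, at 2.30-fold. The others ranged from 0.67 for Cct8 to 0.90 for Cct5. Cell markers moved with this comparison too. The 6 proliferation markers had a median log2 difference of 1.57, with 1 called and 4 at an unadjusted p under 0.05, while 6 of 6 glial (median -5.12), 5 of 5 fibroblast (median -2.87) and 5 of 8 neuronal markers were lower, and their part was not tested. With limma on log2(TPM + 1), 7 of the 10 chaperonin genes were called, and Cct4, Cct6a and Cct8 were not (adjusted p = 0.0681, 0.0679 and 0.166). That test called 6203 of all 16665 genes in either direction. Its median log2 difference was 0.51 for the 10 genes, beside -0.29 over all genes.

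Against MYCN het ganglia, the 10 were higher by 1.56-fold (Cct7) to 2.96-fold (Hspd1), with 22.0% of all genes higher by the same rule and a median log2 difference of 1.28 beside 0.07 over all genes. Their CPM did not overlap with the tumors for 10 of 10 members, as for 32.1% of all genes, a comparison with only 2 het libraries. Here 6 of 6 proliferation markers were higher (median log2 difference 3.77), and 6 of 6 glial (median -5.15), 5 of 5 fibroblast (median -3.53) and 6 of 8 neuronal markers were lower, and their part was not tested. The call of Cct7 was the weakest (0.64 ± 0.23, log2, SE, edgeR adjusted p = 0.0346). The call was lost without replicate 2, 3 or 4 of the tumors (edgeR adjusted p = 0.0686, 0.0501 and 0.0660), with log2 differences of 0.59, 0.65 and 0.60. Leaving out replicate 1 or 2 of the het group leaves 1 het library, and the Cct7 difference was then 0.66 or 0.63. For Cct8 it was 0.75 both in the full fit and without replicate 1 of the het group. With limma on log2(TPM + 1), 7 were called, and Cct4, Cct7 and Cct8 were not (adjusted p = 0.0577, 0.623 and 0.277). That test called 7986 of all 16665 genes in either direction. Its median log2 difference was 0.74 for the 10 genes, beside -0.32 over all genes. The tumor comparisons share the same 4 tumors.

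The effect of the transgene on 2-week ganglia with wild-type Runx1t1 was the next comparison. The MYCN ganglia were the group next below the tumors in mean CPM for 8 of the 10 genes, and normal ganglia were the lowest for 7. That order was not tested, and no share over all genes is given for it. The 6 proliferation markers had a median log2 difference of 2.68, with none called and 6 at an unadjusted p under 0.05, and their part was not tested. None of the 10 was called, where 0.834% of all genes were higher (edgeR, adjusted p from 0.135 to 0.967). DESeq2 and limma on log2(TPM + 1) called none either, where they called 1289 and 16 of all genes. At an unadjusted p under 0.05 there were 4, Tcp1, Cct2, Cct6a and Hspd1, beside 3302 of all 16665 genes. The log2 differences ran from -0.02 for Hspe1 to 0.52 for Cct6a with a median of 0.35, beside -0.04 over all genes. Without replicate 1 of the MYCN ganglia, the median was 0.21. The difference of Hspe1 was above 0 in 6 of the other settings tried. In CPM every MYCN ganglion was above every normal ganglion for 1 gene, Hspd1 (233 to 284 against 144 to 206), and for 4.72% of all genes.

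The MYCN ganglia differed among themselves. The labels number these libraries 1, 3 and 4. Replicate 1 was the highest for 9 of the 10 genes and replicate 3 the lowest for 9, with Hspe1 in the opposite order. Their summed TRiC TPM was 2627, 1952 and 2580.0 in the same order, and their proliferation markers summed to 1054, 110.0 and 566 TPM. Glial markers ran the other way, with 457, 1729 and 1217 TPM. Cct2 was 334, 194 and 276 CPM in these libraries beside 159 to 208 in the transgene-free ganglia. Without replicate 3, 2 members were called, Cct2 (0.70 ± 0.15, log2, SE, edgeR adjusted p = 0.0127) and Cct6a (0.72 ± 0.18, adjusted p = 0.0258), in a fit that called 1811 of all genes. Without replicate 1, none was called. How much of the spread follows the share of dividing cells was not tested.

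In ganglia labelled het, no member was called for the transgene. The 10 genes differed between MYCN het and normal het ganglia by -0.09 (Tcp1) to 0.22 (Cct7) on the log2 scale, with SEs of 0.19 to 0.28, and 0% of all genes were called higher (edgeR, adjusted p = 1 for each member). None had an unadjusted p under 0.05, where 242 of all 16665 genes did, and DESeq2 called none, where it called 13 of all genes.

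The het label was then compared with wild type at a fixed transgene genotype, which is the other axis of the design. In MYCN ganglia, 9 of the 10 had estimates below 0 in the het group, with values from -0.08 for Cct8 to -0.48 for Cct6a on the log2 scale, and Cct7 stood at 0.23, but none was called in either direction (edgeR, adjusted p from 0.421 to 0.903), none had an unadjusted p under 0.05 and DESeq2 called none. Of all genes, 0.0120% were called higher, 2094 of 16665 had an unadjusted p under 0.05 and DESeq2 called 271. The 6 proliferation markers had a median log2 difference of -2.23, with none called and 4 at an unadjusted p under 0.05, and their part was not tested. The SEs of 0.19 to 0.28 leave room for a difference of the size of the estimates. Without the first MYCN ganglion, the log2 differences ran from -0.32 to 0.47 with a median of -0.19, where the median had been -0.32. Without replicate 3 of the MYCN ganglia, they ran from -0.68 to 0.06 with a median of -0.43. That fit called none of the members (lowest edgeR adjusted p = 0.0993) and 320 of all genes in either direction.

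Without the transgene, the het label went with log2 differences of -0.21 for Hspe1 to 0.15 for Cct7, none of them called, beside 0% of all genes (edgeR, adjusted p from 0.993 to 1.00). None had an unadjusted p under 0.05 and DESeq2 called none, beside 687 and 5 of all 16665 genes. The difference between the effects of the transgene in the 2 genotypes ran from -0.60 ± 0.31 for Cct6a to 0.08 ± 0.31 for Cct7 (log2, SE). It was not called for any member (edgeR interaction, adjusted p from 0.845 to 0.980), and a count over all genes is not given for this test.

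Some members separated groups of ganglia in CPM without passing the test across genes, and they were singled out after their values were seen. Cct5 and Hspd1 were higher in every MYCN ganglion than in every ganglion labelled het, with or without the transgene, as were 6.66% of all genes. Cct7 was higher in both MYCN het ganglia (381 and 373 CPM) than in each of the 7 ganglia without the transgene (242 to 351 CPM), as were 2.63% of all genes. Cct4 and Cct7 were higher in both MYCN het ganglia than in each normal het ganglion, as were 10.5% of all genes.

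**Figure D2:**
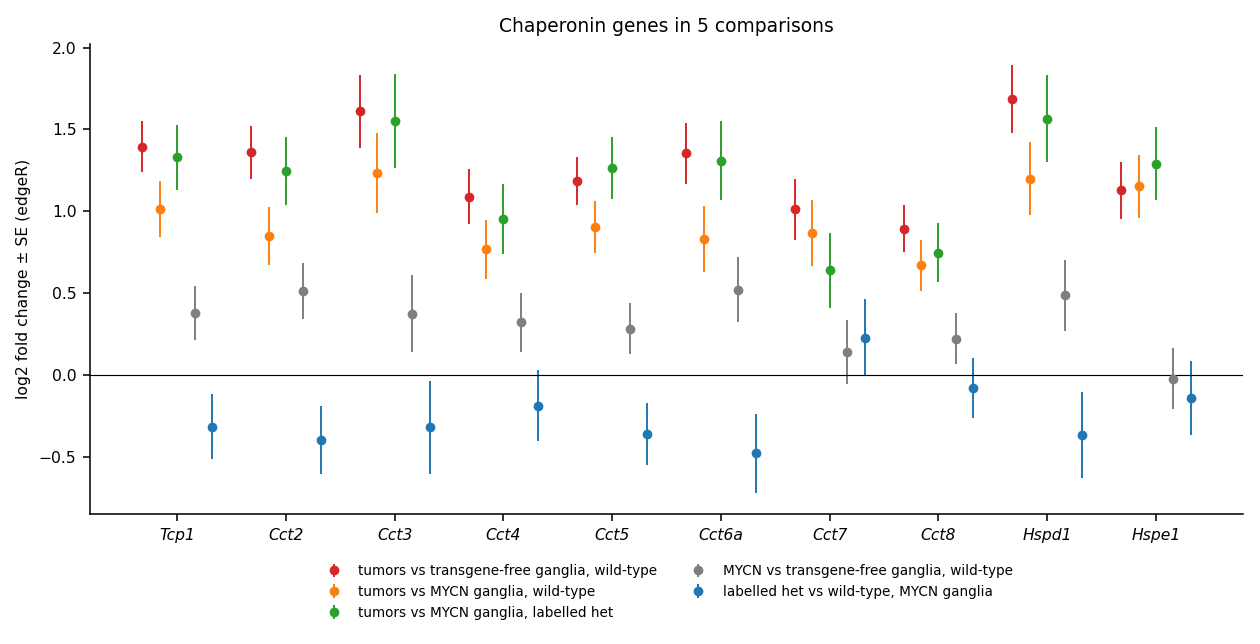
Log2 fold change with its SE (edgeR, 1 fit of all 16 libraries) of each chaperonin gene in 5 comparisons, with a line at 0. The 3 tumor comparisons lie at 0.64 or above for each gene, and the 2 comparisons between ganglia run from -0.48 to 0.52.

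The TRiC genes were also compared with each other within a library. Their summed TPM was 1949 ± 287 (SD, n = 4) in normal, 2105 ± 112 (n = 3) in normal het, 2387 ± 377 (n = 3) in MYCN, 2199.6 ± 36.2 (n = 2) in MYCN het ganglia and 3464 ± 504 (n = 4) in tumors. Within a library, the share of each subunit in that sum is free of any scaling between libraries. Such shares were described, and no test was run on them.

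Cct8 made up 6.86%, 6.79%, 6.70% and 6.39% of TRiC TPM in the tumors. It made up 8.87%, 7.83%, 8.60% and 8.86% in normal, 8.54%, 8.67% and 9.12% in normal het, 7.29%, 8.46% and 8.18% in MYCN and 9.01% and 8.60% in MYCN het ganglia. Cct8 was the only subunit whose share in each tumor was outside the range of all 12 ganglia. The gap was narrowest to the first MYCN ganglion, the library nearest to the tumors in most of these genes.

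Cct7 gave the widest difference between ganglia. Its share was 19.7% and 18.2% in the MYCN het ganglia, above the other 14 libraries, and 15.0%, 13.2% and 12.6% in MYCN ganglia. Normal ganglia had 16.6%, 14.0%, 14.9% and 17.0%, normal het ganglia 16.8%, 16.7% and 15.9%, and tumors 13.9%, 13.3%, 13.8% and 12.5%. The tumors lay below normal, normal het and MYCN het ganglia and overlapped with MYCN ganglia. Pradc1, which overlaps Cct7 by 457 bases on the other strand, has at most 162 counts over the whole gene in a library. The part of reads from the shared stretch in the Cct7 share was not tested.

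Cct3 took 9.35%, 11.1%, 11.1% and 15.0% of the sum in tumors and 8.62% to 9.93% in ganglia. The first tumor was inside the range of the ganglia, and the fourth was far above it. Tcp1 took 20.5%, 19.9%, 19.4% and 17.7% in tumors against 16.7% to 19.0% in ganglia, so that only the fourth tumor overlapped. Cct4 held 5.22% to 5.74% in tumors and 5.34% to 6.30% in 11 ganglia, and 7.63% in replicate 2 of the normal ganglia. Shares of Cct2, Cct5 and Cct6a in tumors overlapped with those in normal ganglia.

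**Figure D3:**
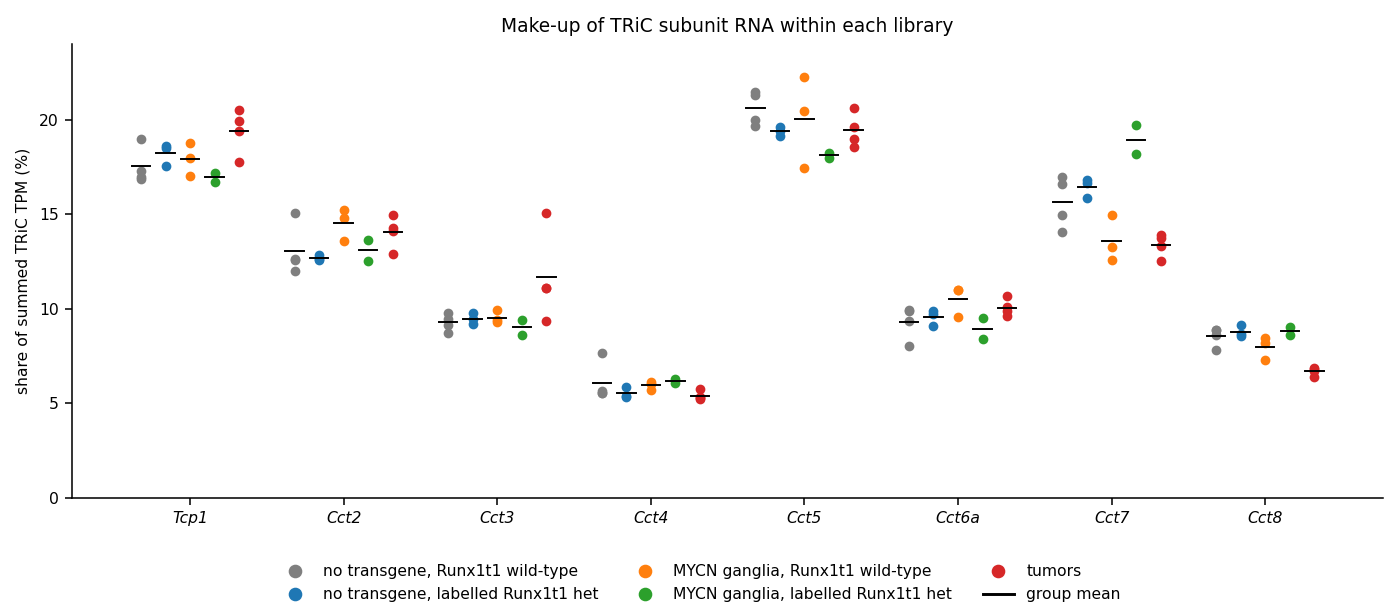
Share of each TRiC gene in the summed TRiC TPM of a library (%, axis from 0), 1 point per library with a bar at the group mean. Cct8 lies lower in the tumors (6.39% to 6.86%) than in all ganglia, Cct7 highest in the MYCN het ganglia (18.2% and 19.7%), and Cct3 highest in the fourth tumor (15.0%).

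The mitochondrial pair was compared in the same way. The ratio of Hspd1 to Hspe1 TPM was 0.713, 0.414, 0.558 and 0.679 in normal, 0.634, 0.891 and 0.685 in normal het, 1.00, 0.726 and 0.799 in MYCN, 0.681 and 0.722 in MYCN het ganglia and 0.814, 0.983, 0.861 and 0.826 in tumors. The 4 tumors and the 3 MYCN ganglia were above each normal ganglion and overlapped with each other. In the tumors Hspd1 reached 562, 564 and 508 TPM in replicates 2, 3 and 4 and Hspe1 572, 655 and 616, while the first tumor had 277 and 340.2.

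**Figure D4:**
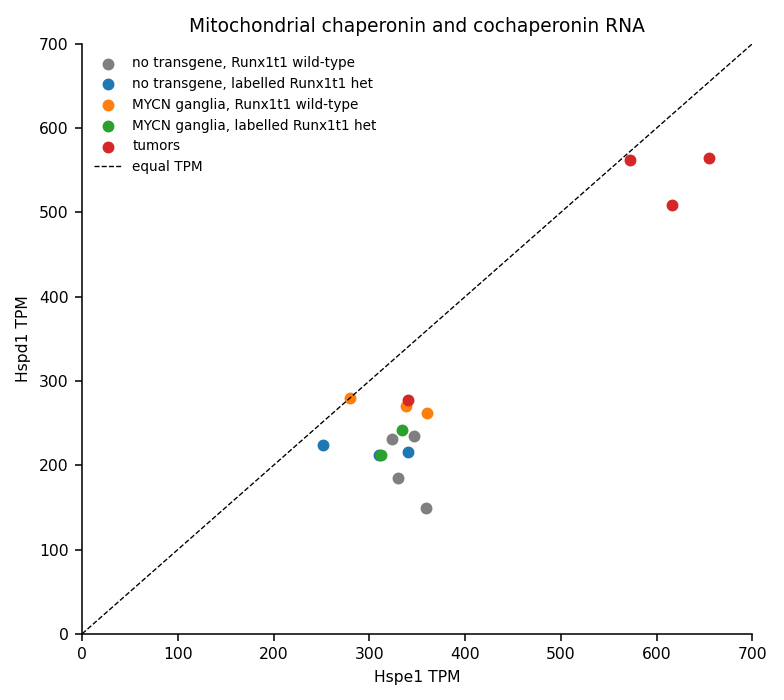
Hspd1 TPM against Hspe1 TPM (both axes linear, from 0), 1 point per library, colored by group, with a dashed line at equal TPM. The first tumor lies among the ganglia at 340.2 and 277 TPM, and the other 3 tumors lie apart at 508 TPM of Hspd1 or more.

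Over the 12 ganglia, each gene was also compared with the mean of the other 9 (Pearson r of standardised log2(CPM + 1), a description over libraries that share groups and depth). This r was 0.80 to 0.96 for 8 of the 10, 0.56 for Cct7 and -0.30 for Hspe1. The genes outside the set whose pattern was most like the mean of the 10 in ganglia were Bub3 (r = 0.96), Insm2 (0.96), Rrn3 (0.96), Trp53bp1 (0.96) and Prmt1 (0.95). Over all 16 libraries, in which the tumors form a separate cluster, they were Iars (0.99), Ipo5 (0.99), Skiv2l2 (0.99), Eaf1 (0.99) and Kars (0.99).

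Genes that work with the chaperonins were read from lists of partners, substrates and mitochondrial genes in the comparison of tumors with normal ganglia. The counts of each list stand beside the 27.0% of all genes called higher and 30.7% called lower. Prefoldin hands substrates to TRiC, and 3 of its 6 subunit genes were higher and none lower, with a median log2 difference of 0.43. Pfdn6 (1.23 ± 0.16, SE) and Pfdn2 (1.21 ± 0.18) rose, and Pfdn5 stood at -0.22 ± 0.16 and Vbp1 at 0.02 ± 0.19. Of the phosducin-like cochaperones of TRiC, none of the 3 tested was called by edgeR and none had an unadjusted p under 0.05, with Txndc9 at 0.22 ± 0.13, Pdcl3 at 0.16 ± 0.17 and Pdcl at -0.05 ± 0.15. The tubulin cofactors, which take tubulin over from TRiC, had 2 of 5 genes lower, near the share over all genes, and none higher, Tbcd (-0.86 ± 0.18) and Tbcb (-0.71 ± 0.15), with Tbcc at 0.20 ± 0.13 and Tbce at -0.14 ± 0.19. Chaperonin-like BBS genes had 1 of 3 tested higher, Bbs12 (0.90 ± 0.31), again near the share over all genes, with Bbs10 at 0.38 ± 0.25 and Mkks at -0.15 ± 0.16.

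Of the TRiC substrates, 5 of 14 were higher and 4 lower with a median of 0.05, which is near the shares over all genes. Cdc20, an activator of the anaphase-promoting complex, rose by 4.39 ± 0.89 on the log2 scale and Tubg1, gamma-tubulin, by 1.19 ± 0.17. Tubb2a, a neuronal tubulin, fell by 1.68 (SE 0.32) and Stat3, a signal transducer, by 1.42 (SE 0.23).

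On the mitochondrial side, the mitochondrial Hsp70 and Hsp90 systems had 5 of 7 genes higher and none lower, with a median of 0.67. Clpb, a disaggregase, rose by 1.89 ± 0.33 and Hspa9, the matrix Hsp70, by 0.86 ± 0.13, while Hscb stood at -0.16 ± 0.30 and Dnaja3 at -0.14 ± 0.18. Of the import machinery, which threads precursors to Hsp60, 7 of 10 were higher and none lower, with Timm50, of the inner membrane translocase, at 1.51 ± 0.19 and Pmpcb, a subunit of the processing peptidase, at 1.05 ± 0.16. The lowest were Timm17a at 0.10 ± 0.22 and Tomm70a at 0.12 ± 0.15. Mitochondrial proteases had 3 of 7 higher, among them Clpp (1.12 ± 0.16) and Lonp1 (1.11 ± 0.13), and none lower, and the lowest values were those of Spg7 (-0.36 ± 0.16) and Afg3l2 (0.09 ± 0.15). Genes read as a gauge of mitochondrial mass had 2 of 8 higher, near the 27.0% over all genes, and none lower, with a median of -0.07. These were Tfam, which packages mitochondrial DNA (1.37 ± 0.23), and Atp5a1, of the ATP synthase (0.48 ± 0.15), while Cox4i1 stood at -0.35 ± 0.16 and Uqcrc1 at -0.33 ± 0.19.

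Cytosolic Hsp70 and Hsp90 systems had 7 of 10 genes higher and none lower, with a median of 0.62. Stip1, which links Hsp70 to Hsp90, rose by 1.52 ± 0.18 and Hsph1 by 1.14 ± 0.24, while Dnaja1 stood at -0.28 ± 0.13 and Bag2 at -0.20 ± 0.25. Genes of the heat shock response had 1 of 7 higher, Hsf1 (0.87 ± 0.15), with Dnajb1 at 0.16 ± 0.14, and 3 lower, among them the small heat shock proteins Hspb8 (fell by 3.96, SE 0.32) and Hspb1 (fell by 1.90, SE 0.50). Of 3 transcription factors of the stress responses, Ddit3 fell by 0.62 (SE 0.25, edgeR adjusted p = 0.0463), and Atf4 stood at 0.26 ± 0.15 and Atf5 at -0.12 ± 0.40. In MYCN against normal ganglia, edgeR called 0 of the 83 genes tested in these 12 lists, 6 had an unadjusted p under 0.05, and DESeq2 called 1. Over all genes, 3302 of 16665 had an unadjusted p under 0.05 and DESeq2 called 1289.

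**Figure D5:**
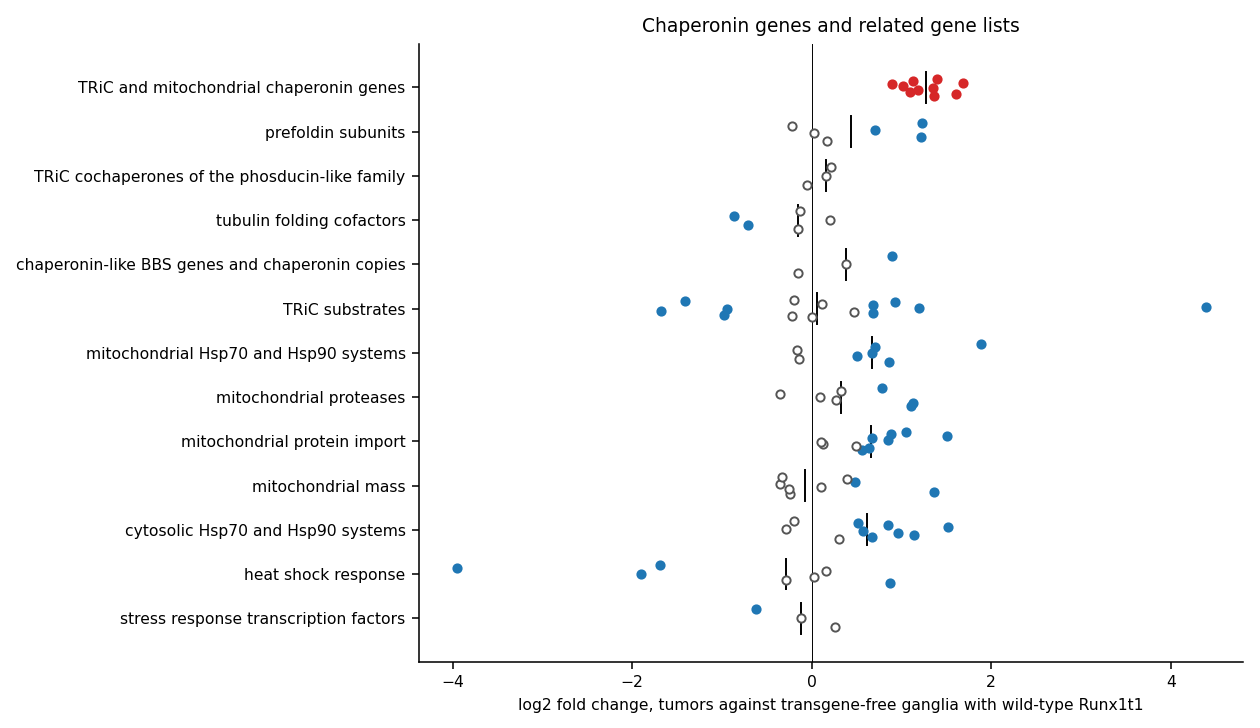
Log2 fold change of tumors against normal ganglia for the chaperonin genes (red) and 12 related lists (blue), 1 point per gene, with a bar at each list's median; filled points passed an adjusted p of 0.05 (edgeR) and open points did not. The 10 chaperonin genes lie between 0.89 and 1.69. Each related list extends to both sides of 0 except that of mitochondrial protein import, which lies above 0.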

How the data were processed

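RNA of 12 ganglia and 4 tumors was measured by whole-transcriptome sequencing. The labels call the RNA polyA, whereas the study describes total RNA libraries. The labels name a stranded library kit. Per the submitters' processing notes the tools were STAR, SAMtools and RSEM with the mm10 build. The authors deposited expected counts per gene without normalization and, separately, TPM, which are scaled by transcript length to the same sum in each library. Runx1t1 headed Hom in the tables was read as homozygous wild type, matched to the sample titles.

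Expected counts were rounded. In R 4.3.3, edgeR 4.0.16 filtered genes by group (filterByExpr), normalized by TMM and fitted the 5 groups in 1 quasi-likelihood model, because 1 group has 2 libraries. There were 7 contrasts and an interaction, adjusted by Benjamini-Hochberg over 16665 genes, with a threshold of 0.05. Group labels do not state separate animals, so p-values measure the spread between these samples, which may be technical. CPM served to compare groups, and TPM to compare genes and shares. CPM were computed from the deposited expected counts. Each member had at least 787 counts in each library, and the number of replicates also limits the precision.

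Members and lists were chosen with earlier results of these data known. Genes named beside the 10 members were the 2 highest and 2 lowest of each of the 12 related lists in tumors against normal ganglia, the 5 most similar in pattern, and cell type markers. Alternatives were upper-quartile normalization, DESeq2 1.42.0, other filters (none, or 10 counts in every library), only the groups compared, a replicate block, a term for depth (under or over 20000000 counts), leaving out the ribosomal RNA gene Rn45s (2.15% to 12.8% of counts), limma 3.58.1 on log2(TPM + 1) and log2(TPM + 0.1), and leaving out each library. The fit was also run on simulated data, and the outcome of that run is not given here. A comparison of the member proteins was planned but not made, as no protein sequences were used here.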

Additional observations from a re-analysis of the deposited data

Results flagged for a closer look

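Each value per library in a group of 4 (member CPM, TRiC shares, the TRiC sum, the Hspd1 to Hspe1 ratio, marker sums and Runx1t1) was examined for a library far from the others, in 58 tests of which 9 stood out; chance gives about 1 in 20. Of the chaperonin genes, Hspe1 stood out in the first tumor, at 109 CPM, with a gap of 0.840 of the group's range to the next tumor. The share of Cct4 in TRiC TPM stood out in replicate 2 of the normal ganglia, at 7.63%. That library also stood out for summed lymphocyte (397 TPM), myeloid (388 TPM) and proliferation markers (285 TPM), and its part in the Cct4 share was not tested. Replicate 3 of the normal ganglia stood out for adrenal cortex markers (32.2 TPM). Among tumors, the second stood out for endothelial (64.9 TPM) and lymphocyte markers (5.93 TPM) and the fourth for fibroblast markers (299 TPM).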

How the results depend on the processing

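The chaperonin genes called were counted for 7 comparisons in each of 10 alternatives and with each of 16 libraries left out. Of these 182 counts, 181 kept within 1.5 times of the value given above, or at 0 where that value was 0. Each of the 10 genes stayed above 0 in the 3 tumor comparisons in every refit. Leaving out single libraries with both MYCN het ganglia kept, 10 members were called in each refit of tumors against normal and against MYCN ganglia. The count was 9 or 10 against MYCN het ganglia, 0 to 2 in MYCN against normal ganglia and 0 in the other comparisons. In MYCN against normal ganglia, the count was 2 without replicate 3 of the MYCN ganglia. The difference of Cct7 ran from -0.10 without replicate 1 of the MYCN ganglia, where it turned, to 0.31 without replicate 3. That of Hspe1, which is -0.02, was -0.0856 without replicate 3 of the MYCN ganglia and turned to 0.0086 without a filter, 0.0138 with the replicate block, 0.0117 without Rn45s, 0.0346 without replicate 2 of the normal ganglia, 0.0348 without replicate 1 of the MYCN ganglia and 0.0082 without replicate 1 of the MYCN het ganglia. Counts over all genes in this comparison moved more, from 156 to 1289 with DESeq2, 16 with limma on log2(TPM + 1) and 0 with the replicate block or with only the groups compared. Leaving out single libraries, it was 1811 without replicate 3 of the MYCN ganglia, 675 without replicate 2 of the normal ganglia, and 0 without replicate 1 or 4 of the MYCN ganglia or replicate 1, 3 or 4 of the normal ganglia, and 1 to 127 without any 1 of the other 9 libraries. The cause was not tested. With the replicate block, 10, 10 and 10 members were called in the tumor comparisons, beside 9298, 5038 and 7576 of all 16665 genes in either direction. It called 0 members in the other 4, beside 0 or 1 of all genes. Over 25 pairs with the same replicate number, the correlation of deviations ran from -0.49 to 0.33 with a mean of 0.0088. Of 16 libraries, 7 correlated best with a library of their own number, which does not settle whether samples were paired. In the ganglia the number also went with depth. With the depth term, the median log2 difference of the members was 1.41 for tumors against MYCN het ganglia, with 10 called, beside 7300 of all genes. It was -0.40 for MYCN het against MYCN ganglia, with 0 called, beside 0 of all genes. Shares of TRiC counts in place of TPM changed no direction between tumors and normal ganglia. With 2 to 4 libraries a group, a log2 difference of 0.52 between ganglia was not called (Cct6a, SE 0.20, MYCN against normal ganglia). Differences of that size between ganglia may thus have gone unresolved.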

Other observations

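TRiC and Hsp60 were also set against each other. The mean TPM of the 8 TRiC genes divided by Hspd1 TPM was 1.22, 1.42, 1.17 and 1.14 in normal ganglia, in the order of the replicates. It was 0.828, 0.751 and 0.971 in tumors 2 to 4 and 1.26 in tumor 1, which is within the range of the normal ganglia. The MYCN ganglia had 1.17, 0.932 and 1.19, of which only replicate 3 was below every normal ganglion. No test was run on this ratio.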
